A study of Mus musculus with 6 samples.

Results

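KPR5 and KPR8 are cell lines derived from mouse lung adenocarcinomas, and their transcriptomes were compared here gene by gene. Each line was represented by 2 arrays of the 6 in the series: 1 from cells given ethanol, the vehicle, and 1 from cells given 4-OH tamoxifen at 250 nM in ethanol, 24 h before RNA was collected. Both lines have the strain label C57/B6-129SvJae and were cultured in DME medium containing 10% serum. In both, per the labels, tamoxifen turns expression of p53 back on, so a vehicle array shows the line without reactivated p53 and a tamoxifen array the line with it. The lines were taken from the sample titles, the treatment was held as a covariate, and the 2 KPR4 arrays of the series were left out of the main comparison. All 20380 probe sets that carry 1 gene symbol, of 22690 on the array, entered; they stand for 12393 genes, and the 7717 genes that reached log2 4 on at least 2 of the 4 arrays were tested. Each line stands for 1 tumour-derived culture, and the labels name no separate cultures within a line and treatment. With line and treatment fitted, what is left over in each gene is the difference of drug response between the lines. The p-values rest on that spread, pooled over genes, and do not measure a spread between cultures. What distinguishes the lines cannot be told apart from what distinguishes the 2 cultures.

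Lung adenocarcinoma is a glandular tumour of the distal lung, and lines grown from separate tumours of one mouse model share its founding lesion but differ in the state their cells have reached. Such states are often read from junction and keratin genes, from lung or gut transcription factors, and from secreted proteins that normally belong to another organ. p53 is a transcription factor that induces genes of cell cycle arrest, repair and death when it is active.

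The 4 arrays had medians between 4.56 and 4.63 on the log2 scale, and 57.2% to 57.6% of their probe sets were at log2 4 or above. Control transcripts of Bacillus subtilis, which mouse cells lack, are probed by 27 probe sets; none of these exceeded 2.65 on these arrays, and that level is taken as background. RNA integrity was read from the excess of 3' over 5' probe signal, which for Gapdh was 0.77 and 1.06 in KPR5 and 0.95 and 0.55 in KPR8 (vehicle, then tamoxifen), and for Actb was 1.34 and 1.74 in KPR5 and 1.71 and 1.64 in KPR8. These integrity values overlapped between the lines.

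In the limma fit 857 genes were higher in KPR5, 11.1% of the genes tested, and 702 were higher in KPR8, 9.1%. The filter could be met by 1 line alone, as it was by 100 genes through KPR5 and 97 through KPR8. Of these, 68 and 67 were called toward that line, and such calls follow in part from the filter. Among the leading genes below, Bgn, Crip1, Bex1, Krt23, Morn4, Lrp2 and Nnat entered through KPR5 alone. Hspb8, Itgb2, Peg12, Ptgds and Traf1 entered through KPR8 alone. A difference of log2 1 or more was reached by 196 of the genes higher in KPR5 and 150 of those higher in KPR8, and one of log2 2 or more by 36 and 16. The smallest difference that passed the threshold was 0.35. Of the 1559 genes called, 194 had a difference of drug response between the lines that was larger than their line difference. With 1 residual degree of freedom per gene the moderation found no gene-specific spread beyond the common trend, so every gene was given the spread of genes of its brightness, an SD of 0.12 to 0.25. The adjusted p-values of the leading genes are very small for that reason, and the adjusted p from a fit with the KPR4 arrays included, which has a finite prior of 13.2 degrees of freedom, is printed for the genes below. That fit called 857 and 724 genes, of which 809 and 663 were also called from the 4 arrays.

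These counts depend on how the arrays are scaled and on single arrays. With each array centred on the median of the tested genes, a setting added after the data were seen, the median difference of all genes moved by -0.13, from 0.06 to -0.07, and 324 genes were higher in KPR5 against 750 in KPR8. The share of calls that were higher in KPR5 then went from 55.0% to 30.2%. In fits that left out 1 array and kept the KPR4 arrays, the counts were 746 and 582 without KPR5 vehicle, 259 and 280 without KPR5 tamoxifen, 678 and 478 without KPR8 vehicle, and 205 and 211 without KPR8 tamoxifen. The 14 genes with the largest differences in each direction kept their calls in each of these 4 fits and with the centred arrays.

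**Figure D1:**
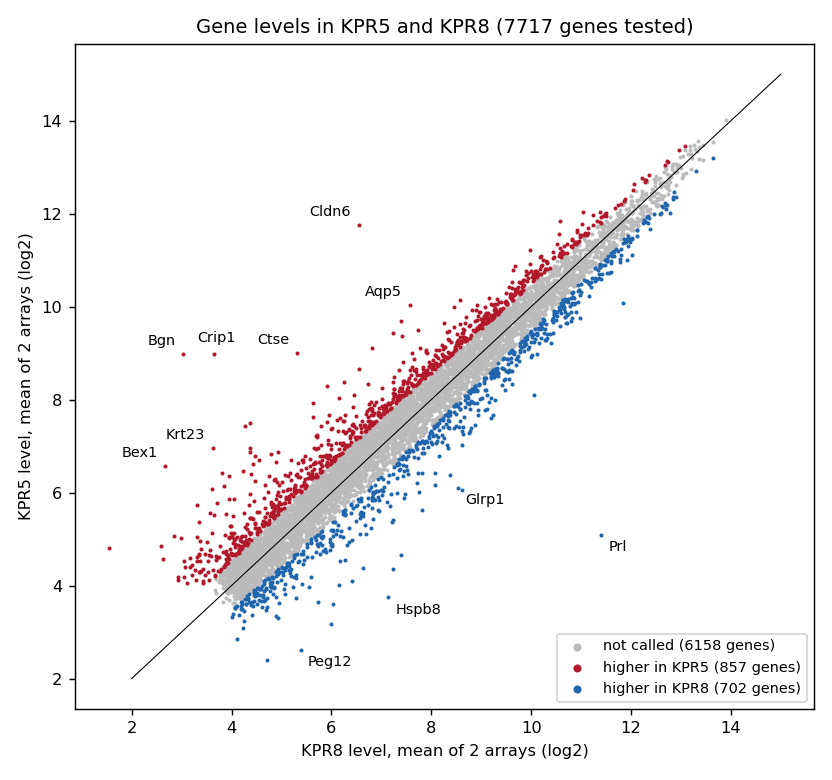
Mean log2 level of each of the 7717 tested genes in KPR8 (x axis) and in KPR5 (y axis), each the mean of 2 arrays; the diagonal marks equal levels. Red points are the 857 genes higher in KPR5 and blue points the 702 higher in KPR8, with Cldn6, Crip1, Bgn and Prl far from the diagonal.

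Higher in KPR5 were Bgn, which encodes the matrix proteoglycan biglycan, Crip1, which encodes a small cysteine-rich LIM-domain protein, and Cldn6, which encodes a claudin of early epithelia. Higher in KPR8 was Prl, which encodes prolactin, the lactation hormone of the pituitary. Glrp1, which encodes a glutamine-rich protein, was also higher in KPR8. Cldn6, Crip1, Prl and Glrp1 were given as markers of the comparison, so their calls are a description of it and not separate evidence.

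Prl read 5.35 with vehicle and 4.84 with tamoxifen in KPR5, and 11.29 and 11.51 in KPR8. Both KPR8 arrays were far above both KPR5 arrays, which lay between background and the middle of the range. The difference was -6.30 ± 0.23 (SE), 78.9-fold, with an adjusted p of 3.3e-11 in the fit of all lines. Glrp1 read 6.003 and 6.198 in KPR5 and 8.33 and 8.73 in KPR8, a difference of -2.43 ± 0.24 (adjusted p = 2e-06). Cldn6 read 11.65 and 11.88 in KPR5, among the bright genes of the array, and 6.18 and 6.91 in KPR8. Its difference was 5.22 ± 0.21, or 37.2-fold (adjusted p = 2.3e-11). Crip1 read 8.98 and 8.97 in KPR5 against 3.32 and 3.98 in KPR8, where it stayed under the filter level. The difference of 5.33 ± 0.25 is 40.1-fold (adjusted p = 2.7e-10). None of these 4 genes had a second named probe set, so no other probe set tests their values. Their differences ran from -6.67 to -5.93 for Prl, -2.61 to -2.25 for Glrp1, 4.97 to 5.47 for Cldn6 and 4.997 to 5.655 for Crip1 over the alternatives tried.

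The 250 bases before the start of these 4 genes are shown because they are the markers given with the comparison; no binding or methylation was measured here. The sequences are from RefSeq (GRCm38.p6), 5′ to 3′ along the gene, with capitals for matches on either strand to 4 motifs. The TATA box was searched as TATAAA. The GC box was searched as GGGCGG. The CCAAT box was searched by those letters. A consensus of the pituitary factor Pit-1 was searched as TATNCAT.
Prl, chr13:27057320-27057569, plus strand: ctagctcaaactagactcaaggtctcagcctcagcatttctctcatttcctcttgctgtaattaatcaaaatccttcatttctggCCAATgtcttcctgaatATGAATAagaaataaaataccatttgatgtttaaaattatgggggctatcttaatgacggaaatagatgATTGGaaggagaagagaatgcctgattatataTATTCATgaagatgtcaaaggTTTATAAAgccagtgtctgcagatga
Glrp1, chr1:88510067-88510316, minus strand: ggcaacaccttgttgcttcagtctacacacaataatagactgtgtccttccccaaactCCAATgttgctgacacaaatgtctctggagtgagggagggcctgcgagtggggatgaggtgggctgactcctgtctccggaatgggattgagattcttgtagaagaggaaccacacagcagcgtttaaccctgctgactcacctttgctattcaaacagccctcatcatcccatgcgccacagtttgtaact
Cldn6, chr17:23679115-23679364, plus strand: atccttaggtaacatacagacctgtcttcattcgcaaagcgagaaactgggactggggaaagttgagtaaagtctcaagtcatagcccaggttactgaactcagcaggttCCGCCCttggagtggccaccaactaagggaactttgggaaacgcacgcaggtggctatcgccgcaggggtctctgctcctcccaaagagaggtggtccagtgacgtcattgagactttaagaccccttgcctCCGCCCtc
Crip1, chr12:113151762-113152011, plus strand: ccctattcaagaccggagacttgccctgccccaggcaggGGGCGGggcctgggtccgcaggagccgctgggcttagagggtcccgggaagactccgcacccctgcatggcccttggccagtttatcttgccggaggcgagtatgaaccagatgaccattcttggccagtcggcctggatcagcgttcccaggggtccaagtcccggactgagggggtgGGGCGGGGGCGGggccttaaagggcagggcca
In the Prl sequence the TATA box matched 2 times in overlapping positions of opposite strands, the first base of the pair lying 26 bases before the start, and the Pit-1 consensus and the CCAAT box matched 2 times each. Of all 32851 promoter sequences of this length in the RefSeq table, 12.4% held the TATA box, 33.8% the CCAAT box, 32.7% the GC box and 7.92% the Pit-1 consensus. The Crip1 sequence held 3 matches to the GC box and 13 CpG dinucleotides, the Cldn6 sequence 2 and 9, and the Prl sequence 0 and 1. The Glrp1 sequence held 4 CpG dinucleotides and 1 match, to the CCAAT box. A match is a description of letters and does not show that a factor binds there.

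Bgn had the largest difference in the direction of KPR5. It read 9.04 and 8.93 in KPR5 against 3.21 and 2.86 in KPR8, near background, a difference of 5.95 ± 0.24 (adjusted p = 2.3e-11). Its 2 other probe sets gave 4.82 and 4.77. Bex1, an X-linked gene of brain-expressed adaptor proteins, read 6.77 and 6.38 against 2.40 and 2.96; with the array at background raised to it, the level in KPR5 was at least 13.6-fold higher. Ctse, encoding the aspartic protease cathepsin E of stomach and immune cells, read 8.68 and 9.32 against 5.06 and 5.55, a difference of 3.69 ± 0.24, while a second probe set gave 0.42. Krt23, a keratin gene, differed by 3.33 ± 0.23. U90926 read 6.72 and 8.15 in KPR5 against 4.319 and 4.205 in KPR8, so its difference was 2.40 with vehicle and 3.94 with tamoxifen. Anxa10, encoding an annexin found in gastric epithelium, differed by 3.13 ± 0.24 and by 1.82 on its other probe set. Morn4 (2.61), Nid1 (2.60), Slco2a1 (2.51), Aqp5 (2.47), Lrp2 (2.46) and Nnat (2.43) completed the 14 largest, with Nid1 at -0.05 on a second probe set and Slco2a1 at 0.61 and 0.50 on 2 others. Nid1 encodes the basement membrane linker nidogen, Slco2a1 a prostaglandin transporter and Lrp2 the endocytic receptor megalin. In the fit of all lines the adjusted p of these 14 genes was 3.8e-05 or less, that of Nnat being the largest.

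**Figure D2:**
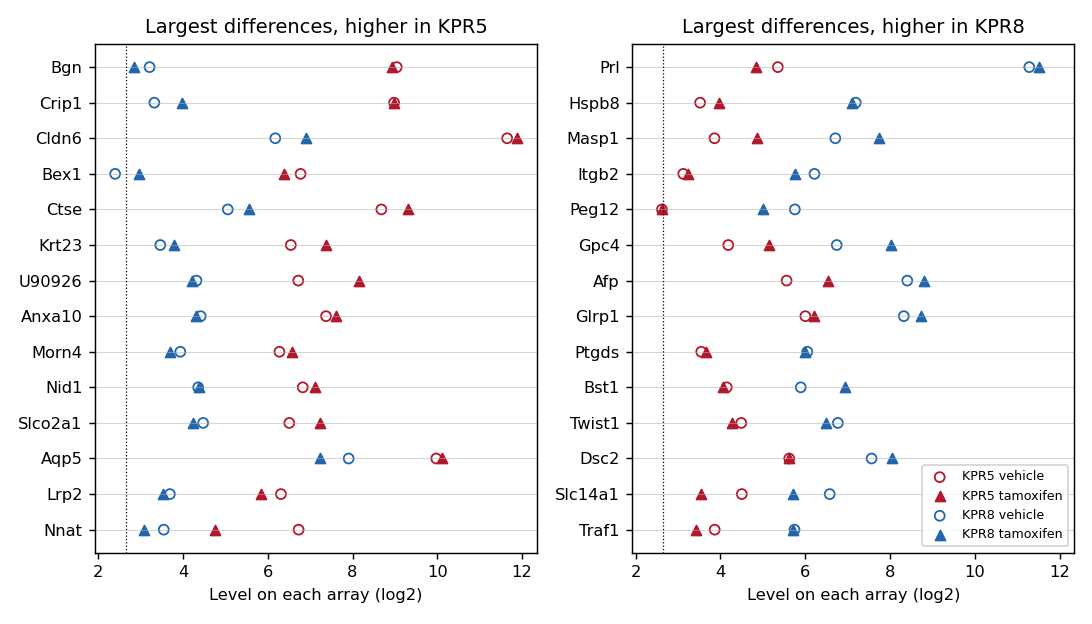
Log2 level on each of the 4 arrays (x axis) for the 14 genes with the largest differences in each direction, KPR5 in red and KPR8 in blue, circles for vehicle and triangles for tamoxifen. The dotted line marks background at 2.65, and in each of the 28 genes both arrays of one line lie above both arrays of the other. The genes were chosen for large differences of the same sign in both treatments, which favours such a separation.

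Hspb8, which encodes a small heat shock protein, came second to Prl in the direction of KPR8. It read 3.52 and 3.97 in KPR5 against 7.19 and 7.09 in KPR8, a difference of -3.40 ± 0.24 (adjusted p = 3.4e-08), with -0.81 and -0.31 on 2 dimmer probe sets. Masp1, a protease gene of the lectin pathway of complement, read 3.86 and 4.87 against 6.71 and 7.74; its 4 other probe sets gave -1.64 to -0.06. Itgb2, encoding the β2 integrin chain of leukocytes, read 3.12 and 3.23 against 6.22 and 5.76 (-2.81 ± 0.22). Peg12, a paternally expressed imprinted gene, was at background on both KPR5 arrays (2.62 and 2.63) and at 5.76 and 5.01 in KPR8, at least 6.64-fold higher there. Afp, encoding α-fetoprotein, the fetal counterpart of albumin, read 5.56 and 6.55 against 8.41 and 8.81, a difference of -2.56 ± 0.24, with -1.31 to -0.20 on its 4 other probe sets. Gpc4, a glypican gene, differed by -2.72, Ptgds, a prostaglandin D synthase gene, by -2.43, and Bst1 by -2.32. Twist1, a mesenchymal transcription factor gene, read 4.49 and 4.27 in KPR5 against 6.77 and 6.49 in KPR8 (-2.25 ± 0.24; adjusted p = 1.7e-06). Dsc2, a desmosomal cadherin gene, differed by -2.18 but by -0.44 on its other probe set. Slc14a1 (-2.13) and Traf1 (-2.09) completed the list, and the adjusted p of the 14 genes in the fit of all lines was 3.3e-05 or less.

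The difference between the lines was measured separately on the vehicle arrays and on the tamoxifen arrays. Of the genes higher in KPR5 by log2 1 or more on the vehicle arrays, 173 in number, 167 were also higher on the tamoxifen arrays, or 96.5%, and 116 were higher by log2 1 or more. Of all tested genes, 58.5% were higher in KPR5 on the tamoxifen arrays and 4.96% by log2 1 or more. Of the 164 genes higher in KPR8 by as much on the vehicle arrays, 158 were so on the tamoxifen arrays, or 96.3%, and 80 again by log2 1 or more, against 41.5% and 3.14% of all genes. Over the tested genes, which do not vary independently of each other, the vehicle and tamoxifen differences correlated with Pearson's r of 0.69 and Spearman's rho of 0.60. The arrays of a pair share a line but are separate hybridisations. Among the genes called, 760 of 857 and 648 of 702 had both arrays of one line above both of the other, as did 48.6% of all tested genes.

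**Figure D3:**
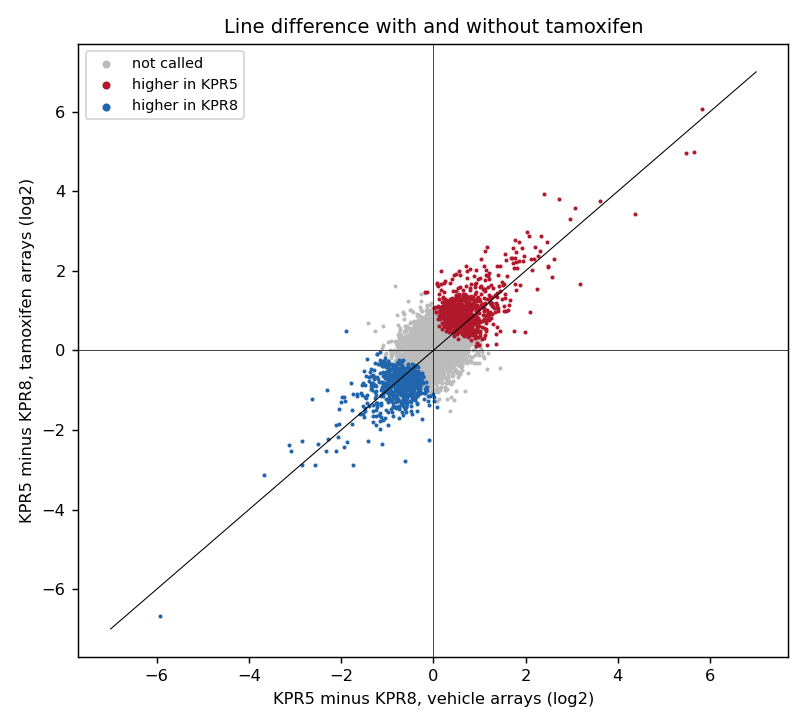
Difference KPR5 minus KPR8 of each tested gene on the vehicle arrays (x axis, log2) and on the tamoxifen arrays (y axis, log2); the diagonal marks equal differences. Genes called higher in KPR5 are red and genes called higher in KPR8 blue, and 1553 of the 1559 called genes have the same sign on both axes.

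Both lines had the RNA of epithelial cells. Cdh1, encoding E-cadherin, was between 11.67 and 12.18 on the 4 arrays, Epcam between 10.05 and 10.75, and Krt8 between 12.09 and 12.27; none of these was called. Vim, encoding the mesenchymal filament vimentin, was between 13.31 and 13.46 and was not called either. Of 33 tested genes of epithelial junctions and keratins, 6 were higher in KPR5 and 4 in KPR8. These are 18.2% and 12.1%, against 11.1% and 9.1% of all genes. The claudins were divided: Cldn18, a claudin of lung and stomach, read 9.48 and 9.40 against 7.36 and 7.10 and was higher in KPR5 by 2.21 ± 0.23 (0.54 on a second probe set), while Cldn4 was higher in KPR8 by 0.70 and Cldn23 by 0.96. Among the keratins, Krt20 (0.93) and Krt19 (0.52) were higher in KPR5 beside Krt23. Of 29 genes of mesenchyme and matrix, 5 were higher in KPR5 (17.2%) and 4 in KPR8 (13.8%). Beside Bgn and Twist1 these included the collagen genes Col5a2, which was higher in KPR5 by 1.43 ± 0.20, and Col1a1, which was higher in KPR8 by 1.32 ± 0.25. With centred arrays the counts were 4 and 5 for the junction genes and 4 and 5 for the matrix genes, so that neither list has a direction that holds under both scalings. Without 1 array they ran from 3 to 8 and 1 to 3 in the first list and from 2 to 6 and 3 to 4 in the second.

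Genes that mark the distal lung and airway were unevenly expressed, and several defining ones were near background in both lines. Nkx2-1, the lung lineage transcription factor gene, was between 2.40 and 2.64, and Sftpc, encoding surfactant protein C of alveolar type 2 cells, between 2.61 and 3.13. Of 31 genes of alveolar and airway identity with a probe set, 16 were under log2 4 on all 4 arrays, 7 of them at or under background. Of the 14 tested, 5 were higher in KPR5 and 3 in KPR8, 35.7% and 21.4% against 11.1% and 9.1% of all genes, the same counts with centred arrays. Those higher in KPR5 were Aqp5, Cldn18, Gata6, Muc1 and Foxa2. Aqp5, a water channel gene of alveolar type 1 cells and glands, read 9.98 and 10.11 against 7.91 and 7.23. Gata6, an endoderm transcription factor gene, differed by 1.38 ± 0.23 (adjusted p = 0.00031), Muc1, a mucin gene, by 1.22 ± 0.23 and Foxa2 by 1.21. A second probe set of Gata6 gave 0.15. Foxp1 (-0.97), Pdpn (-0.64) and Lpcat1 (-0.52) were higher in KPR8. Pdpn read 3.448 and 3.33 in KPR5 and 4.025 and 4.022 in KPR8, so it met the filter through KPR8 alone. Of the 14, 2 read log2 4 or higher on both arrays of 1 line but not of the other. In the fits that left out 1 array the count toward KPR5 was 5 each time, while that toward KPR8 was 1 without either tamoxifen array, 2 without KPR8 vehicle and 3 without KPR5 vehicle; the call of Pdpn stood only without KPR5 vehicle.

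Of 9 tested genes of stomach, gut and liver, 5 were higher in KPR5 and 2 in KPR8, 55.6% and 22.2% against 11.1% and 9.1% of all genes. Centring did not change these counts. The 5 became 2 without either tamoxifen array and 4 without either vehicle array, while 2 were higher in KPR8 in each of these fits. Hnf4a, a nuclear receptor gene of liver and gut, read 7.403 and 7.867 in KPR5 and 5.72 and 5.55 in KPR8, a difference of 2.003 ± 0.246 (adjusted p = 5.3e-06). Its 3 other probe sets gave 0.76, 0.37 and -0.03. Cdx2, the intestinal homeobox gene, went the other way, reading 5.61 and 4.86 against 7.13 and 6.47 (-1.56 ± 0.24; -0.22 on a second probe set). Cdh17, an intestinal cadherin gene, was higher in KPR5 by 1.05, Gcnt3, a mucin glycosyltransferase gene, by 1.02 and Tff1, a gastric trefoil gene, by 0.77. A further 21 genes of this list were under the filter.

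Prolactin was not accompanied by the rest of a pituitary profile. Gh, Drd2, Lhx3, Cga, Pomc and Chgb lay between 1.76 and 3.34 on the 4 arrays in both lines. Of the 6 tested genes of pituitary and placental hormones and their signalling, Prl alone was called; Stat5b (-0.56), Stat5a (-0.30) and Socs2 (-0.15), a kinase-activated factor pair and a feedback inhibitor of cytokine receptors, did not pass, nor did Cish (0.13). Quantile normalization and centring each gave 2 calls in this list. Of 5 tested genes of glutamine-rich and secretory gland proteins, 3 were higher in KPR8, or 60% against 9.1% of all genes. These were Glrp1, Smr2 (-0.96 ± 0.24) and Prol1 (-0.91 ± 0.23). Smr2 and Prol1 are neighbours on chromosome 5, described below; the call of Smr2 was lost without either vehicle array and that of Prol1 without KPR8 vehicle.

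Imprinted genes were divided between the lines. Nnat, a neuronal proteolipid gene, read 6.73 with vehicle and 4.75 with tamoxifen in KPR5 against 3.55 and 3.08 in KPR8. Ndn, encoding necdin, read 4.75 and 5.35 against 3.16 and 3.47 and was higher in KPR5 by 1.74 ± 0.21, while its 7 other probe sets ran from -0.04 to 1.98. Mest was higher in KPR5 by 1.30. Impact, read at 5.11 and 5.62 in KPR5 and 6.52 and 7.89 in KPR8, was higher in KPR8 by 1.84 ± 0.25, as were Peg12 and Grb10 (0.85). In all, 4 of 15 tested were higher in KPR5 and 3 in KPR8, 26.7% and 20% against 11.1% and 9.1% of all genes, and 3 to 4 and 2 to 3 without 1 array. Ndn and Peg12 are both paternally expressed genes of one cluster on chromosome 7, and the lines differed in opposite directions at them.

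Enzymes that detoxify drugs and aldehydes were more often higher in KPR5. Of 34 tested, 13 were higher in KPR5 and 5 in KPR8, 38.2% and 14.7% against 11.1% and 9.1% of all genes, and the list's median difference was 0.29 against 0.06. Centred arrays gave 11 and 5, and leaving out 1 array gave 9 to 13 and 2 to 4. Ephx2, an epoxide hydrolase gene, read 5.25 and 5.48 in KPR5 and 3.54 and 3.16 in KPR8 (2.01 ± 0.21; adjusted p = 1.4e-05). Gsta4, a glutathione transferase gene for lipid aldehydes, read 9.15 and 9.59 against 7.417 and 7.402 (1.96 ± 0.22), and Cbr1, a carbonyl reductase gene, 7.54 and 7.80 against 5.77 and 6.14 (1.72 ± 0.25). Aldh3a1, an aldehyde dehydrogenase gene, differed by 1.11 with vehicle and by 2.50 with tamoxifen. Among the genes higher in KPR8 were Sult1d1 (-1.37), Mgst2 (-1.32) and the drug efflux pump gene Abcb1b (-1.04). In this list 10 of the 34 read log2 4 or higher on both arrays of 1 line but not of the other. The same held for 3 of the 9 stomach, gut and liver genes and 4 of the 15 imprinted genes. It also held for 6 of the 32 solute carriers and channels and 6 of the 26 chemokines, cytokines and receptors. It held for 3 of the 30 LIM-domain and S100 genes and 2 of the 10 interferon-stimulated genes. Genes that met the filter through KPR5 alone included Ephx2, Slc16a3, Slc7a11, Ndn, Col5a2, Fzd4 and Mx1. Those that met it through KPR8 alone included Cxcl12, Fhl1, Pdpn and Dcx. Such calls follow in part from the filter.

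Genes of the antioxidant response controlled by NRF2 had 9 of 27 members higher in KPR5 and 0 in KPR8, 33.3% and 0% against 11.1% and 9.1% of all genes, with a median difference of 0.23. Gclm (1.04 ± 0.24) and Gclc (0.84 ± 0.24), the 2 subunits of the enzyme that starts glutathione synthesis, and Slc7a11 (1.01 ± 0.20), the cystine importer, were among them. The highest difference in the list was that of Gclm. Slc7a11 read 4.464 and 4.616 in KPR5 and 3.571 and 3.485 in KPR8, so it met the filter through KPR5 alone. Of the 27, 2 read log2 4 or higher on both arrays of 1 line but not of the other. With centred arrays 3 were higher in KPR5 and 0 in KPR8, 11.1% against 4.2% of all genes so scaled. Without KPR8 tamoxifen 0 were higher in KPR5, without KPR5 tamoxifen 3, without KPR5 vehicle 7 and without KPR8 vehicle 9. Gclc was not separated between lines (6.70 and 8.63 against 6.48 and 7.18).

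Of 28 genes of stress response and serine synthesis 9 were higher in KPR5 and 2 in KPR8, 32.1% and 7.14% against 11.1% and 9.1% of all genes. Asns, encoding asparagine synthetase, read 11.23 and 11.20 in KPR5 and 10.65 and 9.31 in KPR8, so the lines differed by 0.58 with vehicle and by 1.89 with tamoxifen. Mthfd2, a mitochondrial folate enzyme gene, read 10.24 and 9.61 against 9.83 and 7.81, and Slc7a5, an amino acid transporter gene, 9.40 and 8.61 against 8.82 and 7.02. The call of Asns was lost without KPR8 tamoxifen, and those of Mthfd2, Slc7a5 and Herpud1 (1.28 ± 0.24) without either tamoxifen array. Of 29 cholesterol and fatty acid genes 8 were higher in KPR5 (27.6%), among them Elovl6 (1.11 ± 0.21), a fatty acid elongase gene, and Fdps (0.87 ± 0.20), and 1 in KPR8. Of 32 solute carriers and channels 10 were higher in KPR5 (31.2%), among them the lactate exporter gene Slc16a3 (2.21 ± 0.20) and the sulfate transporter gene Slc26a2 (1.76 ± 0.24), and 2 in KPR8. Centred arrays gave 5 and 2 for the stress genes, 3 and 1 for the lipid genes and 5 and 3 for the carriers, and leaving out 1 array left 0 to 9, 3 to 6 and 4 to 9 of them higher in KPR5. Fewer of all genes were called in such fits too. Without KPR8 tamoxifen the median differences of the 3 lists were -0.06, 0.26 and 0.19, against 0.02 for all genes. Without KPR5 tamoxifen they were -0.07, 0.07 and 0.35, against 0.03 for all genes. Of 28 genes of glycolysis and hypoxia 5 were higher in KPR5 (17.9%) and 1 in KPR8 (3.57%), but with centred arrays 0 and 1 were. Housekeeping and ribosomal protein genes, which are used by every cell, also had 5 of 25 higher in KPR5 (20%) and 2 in KPR8 (8%). With centred arrays 0 and 3 were, and the differences were 0.60 (Sdha) at most.

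**Figure D4:**
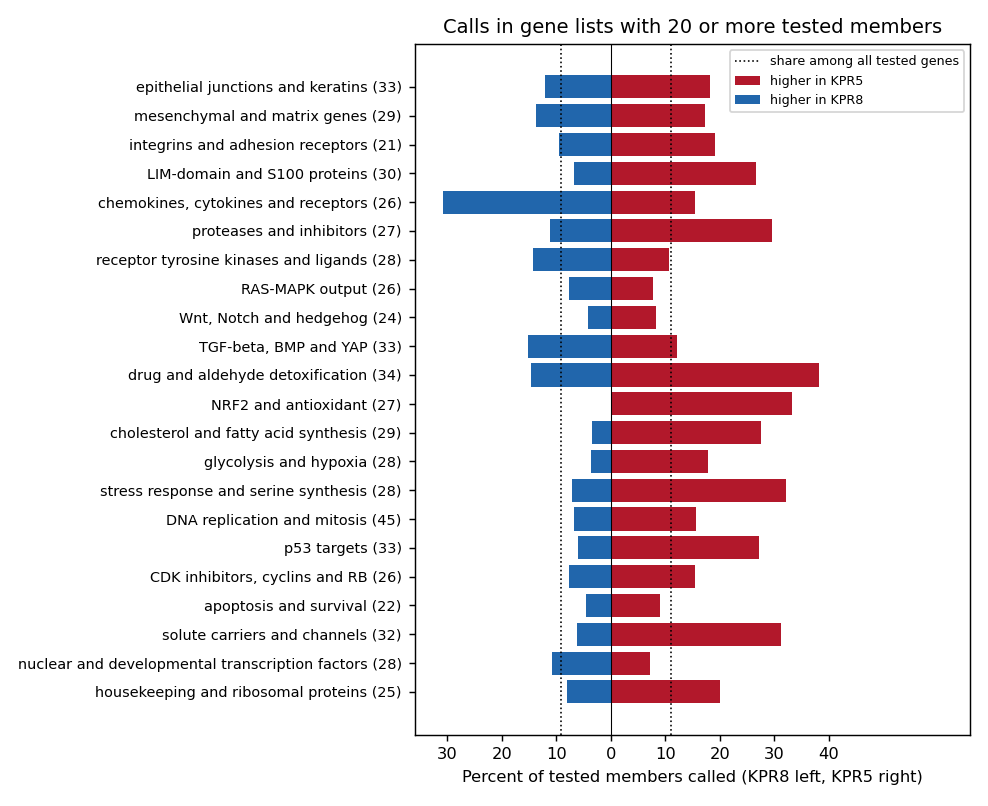
Percent called among the tested members of each gene list with 20 or more (number tested in brackets), shown as higher in KPR5 (red, right) and higher in KPR8 (blue, left); dotted lines mark the shares among all tested genes, 11.1% and 9.1%. Drug and aldehyde detoxification reaches 38.2% toward KPR5, and chemokines, cytokines and receptors 30.8% toward KPR8.

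Genes of chemokines, cytokines, their receptors and prostaglandin enzymes were called more often toward KPR8, a lean absent without KPR8 tamoxifen. The shares among all genes were 9.1% toward KPR8 and 11.1% toward KPR5. With centred arrays the shares among all genes were 9.72% and 4.2%. The chemokine and cytokine list so scaled stood above the all-gene share in both directions, at 23.1% and 11.5%. Of 26 tested chemokines, cytokines and receptors 8 were higher in KPR8 and 4 in KPR5, 30.8% and 15.4%, with 6 and 3 from centred arrays and 2 to 6 and 2 to 4 without 1 array, the lowest without KPR8 tamoxifen. Cxcl5, a neutrophil chemokine gene, read 6.025 and 6.004 in KPR5 and 7.14 and 8.36 in KPR8 (-1.73 ± 0.24), and its call was lost without KPR8 tamoxifen. Cxcl12 read 3.98 and 3.94 against 5.21 and 5.25 (-1.27 ± 0.22; adjusted p = 0.00017). Csf1, the macrophage growth factor gene, differed by -1.03. Higher in KPR5 were Ptges, a prostaglandin E synthase gene, at 5.66 and 7.07 against 3.35 and 4.56 (2.41 ± 0.23), and Tnfsf9 (1.26), Il33 (1.25) and Il4ra (0.87). Ptgs2, which makes the substrate of prostaglandin synthases, was higher in KPR8 by 0.49, so genes of the prostaglandin pathway were split.

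Proteases and their inhibitors had 8 of 27 members higher in KPR5 (29.6%), led after Ctse by Plat, encoding tissue plasminogen activator (1.93 ± 0.24), and Timp3 (1.497 ± 0.244; call lost without KPR8 tamoxifen), and 3 higher in KPR8, namely Adamts1 (-1.08), Timp1 (-0.81) and Plau (-0.68), the gene of urokinase. Leaving out 1 array gave 3 to 7 and 2, with 3 without KPR8 tamoxifen and 4 without KPR5 tamoxifen, and centred arrays gave 4 and 3. LIM-domain and S100 genes had 8 of 30 higher in KPR5 and 2 in KPR8, 26.7% and 6.67% against 11.1% and 9.1% of all genes. The 8 became 4 with centred arrays, 5 with all 6 arrays, 4 without KPR5 vehicle and 5 without any other single array; S100a13 (1.89 ± 0.24) followed Crip1, and Crip2, its paralog, differed by 0.71. Fhl1, another LIM-domain gene, was higher in KPR8 by 1.23 ± 0.20.

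Signalling lists were mostly close to the shares among all genes, 11.1% toward KPR5 and 9.1% toward KPR8. Receptor tyrosine kinases and their ligands had 3 of 28 members higher in KPR5 and 4 in KPR8, where Pdgfa, a platelet-derived growth factor gene, read 10.84 and 11.10, against 9.30 and 10.23 in KPR5 (-1.20 ± 0.18). RAS-MAPK output genes had 2 and 2 of 26, with Jun higher in KPR8 by 1.46 ± 0.23 (-0.03 on its other probe set) and Fos in KPR5 by 0.98 ± 0.24. Wnt, Notch and hedgehog genes had 2 and 1 of 24. The Wnt receptor gene Fzd2 read 7.72 and 6.91 in KPR5 against 8.87 and 8.69 in KPR8 (-1.47 ± 0.23), and Fzd4 was higher in KPR5 by 1.22 ± 0.20, a call lost without either vehicle array. Genes of TGF-beta, BMP and YAP had 4 and 5 of 33; the BMP targets Id1 (1.30 ± 0.24) and Id3 (1.22 ± 0.24) and the ligands Bmp2 (0.95) and Bmp4 (0.58) were the 4 higher in KPR5. The cyclin gene Ccnd2 read 9.97 and 10.00 against 7.88 and 9.02 (1.53 ± 0.21), and 5 of its 6 other probe sets gave 1.18 to 1.91 and the sixth -0.23.

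Of 21 integrins and adhesion receptors 4 were higher in KPR5 (19%) and 2 in KPR8 (9.52%). Alcam, encoding a cell adhesion molecule of the immunoglobulin family, read 9.80 and 9.49 in KPR5 against 8.16 and 8.35 in KPR8 (1.39 ± 0.21), and Itga2, the α2 integrin gene, was higher in KPR5 by 1.09 ± 0.24. Of 14 IGF-binding and growth hormone genes 3 were higher in KPR5 and 4 in KPR8, and 1 and 4 with centred arrays, 0 and 2 without KPR8 tamoxifen, 1 and 2 without KPR5 tamoxifen and 3 and 0 without KPR8 vehicle. Angptl4, an inhibitor gene of lipoprotein lipase, differed by 1.66 ± 0.22, a call lost without KPR8 tamoxifen, and Igfbp3 by -0.92 ± 0.16, a call lost without KPR8 vehicle. Interferon-stimulated genes were divided, with 3 and 3 of 10 called (1 and 3 when centred): the deconjugase gene Usp18 was higher in KPR8 by 1.14 ± 0.21 and the antiviral gene Mx1 in KPR5 by 0.87 ± 0.21, both calls being lost without KPR8 tamoxifen, which left 0 and 0 in this list. Antigen presentation genes had 1 and 0 of 7, and embryonic and stem cell genes 3 and 2 of 10, Cldn6 and Bex1 among them. Cyclins, their inhibitors and RB had 4 and 2 of 26, apoptosis genes 2 and 1 of 22, where the death receptor adaptor gene Tradd differed by 1.04 ± 0.20, and developmental transcription factors 2 and 3 of 28. DNA replication and mitosis genes had 7 and 3 of 45, but 1 and 4 with centred arrays. Against 11.1% and 9.1% of all genes, the shares called were 30% and 30% for the interferon list, 21.4% and 28.6% for the IGF list and 30% and 20% for the embryonic list.

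Called genes were spread unevenly over the chromosomes, to which 7705 of the tested genes were assigned from the RefSeq gene table (GRCm38.p6). On chromosome 5, 132 of 526 genes were higher in KPR8, or 25.1%, and 11 in KPR5, or 2.09%, with a median difference of -0.27. On the X chromosome 65 of 229 were higher in KPR8 (28.4%) and 4 in KPR5 (1.75%), with a median of -0.32. Chromosome 19 had the reverse: 82 of 298 were higher in KPR5 (27.5%) and 7 in KPR8 (2.35%), with a median of 0.29, and on chromosome 8 87 of 427 were (20.4%), with a median of 0.24. The medians had the same sign on the vehicle arrays (-0.33, -0.34, 0.21 and 0.15 for chromosomes 5, X, 19 and 8) and on the tamoxifen arrays (-0.22, -0.31, 0.39 and 0.36). They kept it with centred arrays too, at -0.40, -0.44, 0.17 and 0.11, where all genes had -0.07. The centred counts were 140 for chromosome 5 and 70 for X toward KPR8, and 33 for chromosome 19 and 29 for chromosome 8 toward KPR5. Without KPR8 tamoxifen, the array whose loss lowered the counts most, 45, 20, 13 and 15 genes were called in these directions on chromosomes 5, X, 19 and 8, and without KPR5 tamoxifen 56, 27, 22 and 16. For chromosome 8 these 15 and 16 genes were close to the share of all genes called in the same fits, unlike for chromosomes 5 and X. Without KPR8 tamoxifen the medians were -0.32, -0.33, 0.215 and 0.17 for chromosomes 5, X, 19 and 8, against 0.02 for all genes. DNA copy number was not analysed here.

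**Figure D5:**
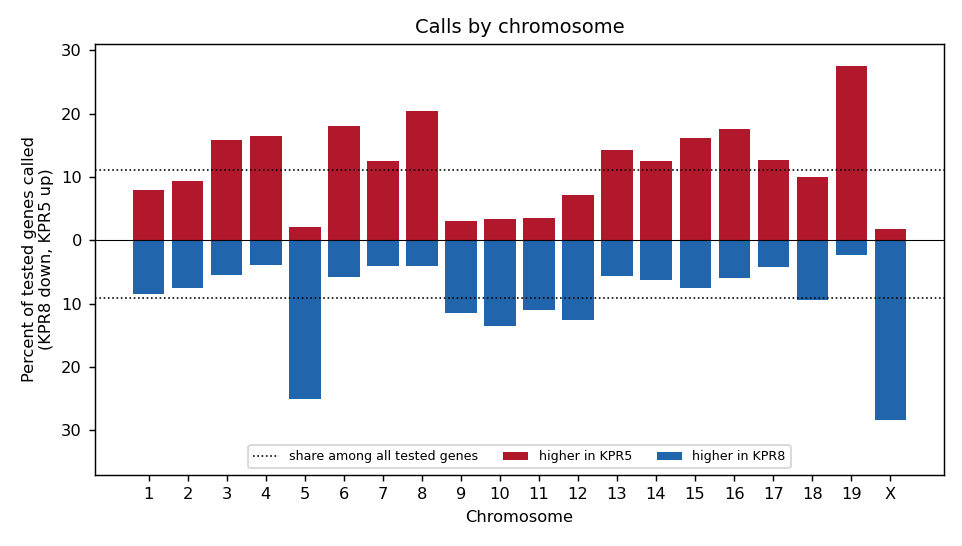
Percent of the tested genes of each chromosome but Y called higher in KPR5 (red, up) or higher in KPR8 (blue, down), with dotted lines at the shares among all tested genes, 11.1% and 9.1%. Chromosomes 5 and X have 25.1% and 28.4% called toward KPR8, and chromosome 19 has 27.5% toward KPR5.

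A run of 15 neighbouring tested genes on chromosome 5, from Igfbp7 to Jchain, is described because it had the largest median difference of any such run, which makes it a choice made on these values. Of the 15 genes, 13 were higher in KPR8 and 1, Igfbp7, in KPR5, and the median was -0.99, being -1.24 on the vehicle arrays and -0.77 on the tamoxifen arrays. The run holds genes with little shared function. Csn1s2a, a casein gene of milk, read 6.18 and 6.25 in KPR5 and 7.66 and 7.76 in KPR8 (-1.499), and Csn3, encoding κ-casein, 5.25 and 5.35 against 6.91 and 6.44 (-1.37). Casein genes are known in the mammary gland as targets of prolactin, the hormone whose gene was highest above KPR5 in these cells. Their neighbours Epha5 (-1.10), Gnrhr (-1.07), Ugt2b37 (-1.13) and Sult1d1 (-1.37), which encode an ephrin receptor, the gonadotropin-releasing hormone receptor, a glucuronosyltransferase and a sulfotransferase, differed by about as much, and Csn1s2b did not pass (-0.23). The part of either circumstance in the casein values was not tested.

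Among genes of the sex chromosomes 6 of 11 were higher in KPR8 and 0 in KPR5, and 2 to 5 were higher in KPR8 without 1 array, the fewest without KPR8 tamoxifen. With all 4 arrays the shares were 54.5% toward KPR8 and 0% toward KPR5, against 9.1% and 11.1% of all genes. The Y-linked genes Eif2s3y, at 8.90 and 9.08 in KPR5 and 9.72 and 10.50 in KPR8 (-1.12 ± 0.20), and Kdm5d (-1.13 ± 0.22; -0.26 and -0.28 on 2 other probe sets) were measured above the filter in both lines. Usp9x, a deubiquitinase gene on X, differed by -1.01 ± 0.18, a call lost without KPR8 tamoxifen, as that of Kdm5d was without either tamoxifen array. The other probe sets of Usp9x ran from -0.95 to 0.18, all but the last being below 0. That last probe set was bright, at 9.161 and 9.292 in KPR5 and 9.046 and 9.055 in KPR8. Xist, the RNA that coats an inactive X chromosome, read 4.28 and 4.02 in KPR5 and 4.84 and 4.64 in KPR8 (-0.59 ± 0.21), passing the filter in both lines. Bex1, also on X, went against the chromosome and was higher in KPR5.

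With 1 array per line and treatment, drug responses can be set side by side but their difference cannot be tested. On the tamoxifen array 280 genes stood higher than on the vehicle array by log2 1 or more in KPR5 and 105 lower, against 171 and 164 in KPR8; 104 were higher and 47 lower by that much in both. Across genes the 2 responses correlated with Pearson's r of 0.63. Of 33 tested p53 targets 22 were higher with tamoxifen by log2 1 or more in KPR5 and 22 in KPR8, and 21 of them in both, with median responses of 1.89 and 1.88. Cdkn1a, encoding the cell cycle inhibitor p21, went from 7.73 to 11.23 in KPR5 and from 5.97 to 10.75 in KPR8. The lines differed more with vehicle (1.76) than with tamoxifen (0.48), and the call of 1.12 ± 0.21 was lost without either vehicle array or without KPR8 tamoxifen. Mdm2, whose product degrades p53, read 8.78 and 11.78 in KPR5 and 8.93 and 11.63 in KPR8 and was not called. In all 9 p53 targets were higher in KPR5 and 2 in KPR8, 27.3% and 6.06% against 11.1% and 9.1% of all genes. The 9 became 3 with centred arrays, 5 with all 6 arrays, 1 without KPR8 tamoxifen, 2 without KPR5 tamoxifen, 5 without KPR8 vehicle and 6 without KPR5 vehicle. Of 45 genes of DNA replication and mitosis 14 were lower with tamoxifen by log2 1 or more in KPR5 and 24 in KPR8, with median responses of -0.88 and -1.06.

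The serine and stress genes had different values after the drug. Of the 28, 0 were lower with tamoxifen by log2 1 or more in KPR5 and 7 were in KPR8, with median responses of 0.16 and -0.30. Chac1, a glutathione-degrading enzyme gene of the amino acid response, went from 5.74 to 6.21 in KPR5 and from 7.16 to 5.54 in KPR8. Shmt2, a mitochondrial serine enzyme gene, went from 8.04 to 7.77 and from 8.58 to 6.53. Its other probe sets fell less in KPR8, from 5.735 to 4.839, from 4.75 to 3.907 and from 7.385 to 6.592. In KPR5 these went from 6.034 to 5.597, from 4.638 to 4.318 and from 7.032 to 6.721. The 3' over 5' excess of Gapdh went up with the drug in KPR5 and down in KPR8, and its part in these values was not tested.

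Most markers of blood and endothelial cells were under the filter level, and those of neurons were divided. Of 17 leukocyte markers with a probe set 14 were under log2 4 on all 4 arrays, and Ptprc, encoding the pan-leukocyte antigen CD45, lay between 1.62 and 2.05, so that Itgb2 was higher in KPR8 with CD45 RNA at background in both lines. Of 11 endothelial markers 8 were under log2 4 throughout, Pecam1 included, but Flt1, a VEGF receptor gene, read 5.61 and 5.22 in KPR5 and 7.38 and 7.08 in KPR8 (-1.82 ± 0.25). Of 8 erythroid and platelet markers 7 were under it, and Ppbp, a platelet chemokine gene, read 7.19 and 6.98 against 8.23 and 8.20. The summed level of the fibroblast list was 7.66 and 7.55 on the KPR5 arrays and 8.17 and 8.10 on the KPR8 arrays, with 8 of its 13 members under log2 4. Of 16 neuroendocrine and neuronal markers 8 were under log2 4 throughout, Chga and Syp among them, and the summed level of the list was 9.51 and 9.26 in KPR5 and 9.76 and 9.44 in KPR8. Ncam1, a neural adhesion molecule gene, was between 8.35 and 9.09, Tubb3 was higher in KPR5 by 0.73 (a call lost with centred arrays) and Dcx in KPR8 by 1.05. In a bulk sample fewer cells of a type and less RNA per cell cannot be told apart.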

How the data were processed

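Gene expression was measured on 1 microarray for each of 3 cell lines and 2 treatments; the 4 arrays of KPR5 and KPR8 are compared here. The authors deposited log2 expression values per probe set, and the submitters' processing notes name GCRMA 2.20.0 and R 2.11.0. Per the labels, 100 ng of Trizol-extracted total RNA was amplified (NuGEN Ovation V2). GCRMA subtracts a sequence-modelled background and normalizes between arrays, which hides a shift shared by most genes; the sources used here do not say which arrays were normalized together. Scanner files were not used, so saturation was not examined. The number of arrays limits the precision.

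GEO's platform annotation gave 1 symbol for 20380 probe sets, several for 691 and none for 1555; 64 are controls. By Entrez identifier 20351 matched the GRCm38.p6 table, which changed 0 symbols. Each gene was represented by its brightest named probe set and kept if 2 or more of the 4 arrays read log2 4 or higher; 4676 genes were not kept. limma 3.58.1 in R 4.3.3 fitted line and treatment with an intensity trend, and 2-sided p-values were Benjamini-Hochberg adjusted over all 7717 genes (threshold 0.05). The fit was tested on simulated data. Errors are standard errors of the fit, built on the common spread. Folds are 2 to the power of the log2 difference, and values at or under the highest Bacillus subtilis control were raised to it for bounds. The text names the 14 largest called differences in each direction with the same sign in both treatments, the 4 markers given with the comparison, up to 4 called members of each of 38 gene lists (or its 2 largest if none was called), and the 6 largest response differences in each direction; the other list members, promoter genes and the run on chromosome 5 were named after their values were seen. The comparison, its members and the lists were chosen with earlier results of these data known. Alternatives covered filters, probe set choice, moderation, scaling, the KPR4 arrays, the treatment term and each array left out in turn. Reactivation of the gene that encodes p53 itself is not reported here.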

Additional observations from a re-analysis of the deposited data

Results flagged for a closer look

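The 6 genes with the largest difference of drug response in each direction, among genes above log2 4 on all 4 arrays, were examined, and in 10 of them the response on the log2 scale ran in opposite directions in the lines. Other named genes, such as U90926 (1.43 in KPR5 and -0.11 in KPR8), also had responses of opposite sign. The difference was not tested, since each response rests on 1 array per treatment. The genes were chosen by that difference, so opposite signs are in part a result of the choice. Toward a rise in KPR5, AY036118 gave 1.64 in KPR5 and -0.75 in KPR8, Rnpepl1 1.045 and -0.65, Chac1 0.47 and -1.63, and Fancf, a gene of DNA crosslink repair, 0.42 and -1.29. Toward a rise in KPR8, Reep3 gave -1.27 in KPR5 and 0.89 in KPR8, Rp2 -0.80 and 1.365, Slc6a6, the taurine transporter gene, -1.30 and 0.59, Map1b -1.25 and 0.65, Net1 -1.24 and 0.44, and Brwd1 -1.01 and 0.69. Other probe sets differed. One of Fancf went from 2.95 to 2.71 in KPR5 and from 3.24 to 2.73 in KPR8. One of Map1b went from 4.08 to 4.10 and from 3.28 to 3.35, and one of Brwd1 from 4.73 to 5.23 and from 4.92 to 4.93. The other probe sets of Rp2 kept opposite directions, one going from 3.71 to 3.24 and from 3.58 to 4.25.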

How the results depend on the processing

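The counts of genes higher in KPR5 and in KPR8, 857 and 702, were within 1.5 times under the filters on low values, the control level as a floor, the moderation settings, quantile normalization (602 and 662) and all 6 arrays. Without the treatment term they were 40 and 16, averaging the probe sets of each gene left 421 genes higher in KPR8, and with centred arrays, chosen after seeing the data, 324 genes higher in KPR5 were left. Leaving out 1 array gave 205 to 746 and 211 to 582. Those fits hold fewer arrays; the cause of the gaps between arrays was not tested. Of 134 named genes that were called, 64 kept the call with each of the 4 arrays left out in turn, and Braf and P4ha1 kept it with none; the 28 leading genes were among the 64. Without the treatment term 104 of the calls were lost, with centred arrays 21, with the mean of probe sets 18 and with all 6 arrays 5. Some differences changed sign. Among called named genes, AY036118 did so on the tamoxifen arrays alone (0.4995). Of those not called, Chac1 (0.68), Fancf (0.62), Ilkap (0.49) and Slc6a6 (-0.45) did so on the tamoxifen arrays, and Brwd1 (0.68), Net1 (0.45), Map1b (0.37), Shmt2 (-0.54) and Rnpepl1 (-0.28) on the vehicle arrays. With the mean of probe sets Brwd1 gave 0.1435 and Rps9 0.1484, and with every probe set on its own Brwd1 gave 0.6347 and Map1b 0.7755. Leaving out 1 array, the differences ran from -1.748 to 0.3581 for AY036118, -0.8485 to 0.5192 for Brwd1, -1.338 to 0.5965 for Chac1, -1.122 to 0.6533 for Fancf, -1.14 to 0.3549 for Ilkap, -1.332 to 0.1716 for Map1b, -1.148 to 0.3557 for Net1, -0.1882 to 1.321 for Rnpepl1, -0.5039 to 1.2 for Shmt2 and -0.2564 to 1.25 for Slc6a6. The causes were not tested. Without scanner values, signal over background was not measured, and levels under the control level have no order.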
